A study of Mus musculus with 2 samples.

Results

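The microRNA genes described here are the 6 of the Mir17-92 cluster on chromosome 14 (Mir17, Mir18, Mir19a, Mir20a, Mir19b-1 and Mir92-1) and the 3 of its paralog inside the replication gene Mcm7 on chromosome 5 (Mir106b, Mir93 and Mir25). They were found by matching Ensembl identifiers to these symbols in GENCODE M21, which gave 9 of the 2202 microRNA genes counted. The libraries are microRNA sequencing libraries with inserts under 30 nt. They are labelled as gastrocnemius, a muscle of the calf, taken at postnatal day 4 from male pups of the hybrid strain B6CASTF1/J. The strain is a cross of C57BL/6 with CAST mice. No allele or agent is named beside the strain. The labels give 1 group of 2 biological replicates, replicate 2 from the pup numbered 4 and replicate 1 from the pup numbered 3, under a shared donor identifier. There is no second condition, so the 9 genes can be described in each library and set side by side between them.

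A cluster of this kind is transcribed as a single precursor that is cut into several hairpins, and each hairpin yields mature microRNAs that guide repression of messenger RNAs through the seed, bases 2 to 8 of the microRNA. Mir17-92, also known as oncomir-1, is switched on by Myc and E2F factors, and its products restrain cell cycle inhibitors and pro-apoptotic proteins such as p21 and Bim. The cluster is known for high levels in dividing progenitors and lower levels in differentiated tissue, including muscle. Mir106b, Mir93 and Mir25 are made from an intron of Mcm7, which encodes a subunit of the helicase that opens DNA for replication, and share seeds with Mir17-92.

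The mature sequences below, from RefSeq on build GRCm38.p6, are shown because the results turn on which genes share a seed. Each is read 5′ to 3′ with its seed in capitals, and the arm shown is the one generally taken as dominant. The first 4 share the miR-17 seed, the fifth has the miR-18 seed, the next pair has the miR-19 seed and the last pair has the miR-25 seed.
Mir17 (miR-17-5p): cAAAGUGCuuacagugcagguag
Mir20a (miR-20a-5p): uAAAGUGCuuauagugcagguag
Mir106b (miR-106b-5p): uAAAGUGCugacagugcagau
Mir93 (miR-93-5p): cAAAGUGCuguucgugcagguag
Mir18 (miR-18a-5p): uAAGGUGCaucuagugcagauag
Mir19a (miR-19a-3p): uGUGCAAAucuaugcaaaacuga
Mir19b-1 (miR-19b-3p): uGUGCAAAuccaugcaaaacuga
Mir92-1 (miR-92a-3p): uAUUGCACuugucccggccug
Mir25 (miR-25-3p): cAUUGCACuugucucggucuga

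All 9 genes had a RefSeq mature sequence. With positions counted from 1 at the 5′ end and the first-named microRNA's base given first, miR-17-5p and miR-20a-5p differ by C1U and C12U, both outside the seed. miR-17-5p and miR-93-5p differ by U10G, A11U, C12U and A13C. miR-92a-3p and miR-25-3p differ by U1C, C14U and C18U over 21 bases. miR-19a-3p and miR-19b-3p differ by U11C alone. Another cluster, on the X chromosome, Mir106a-363, holds close copies: miR-106a-5p differs from miR-17-5p by U10A alone, and its mature miR-19b-3p and miR-92a-3p are identical to those above.

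In the mm10 annotation the 6 genes of Mir17-92 lie on the plus strand of chromosome 14 between 115043671 and 115044506, a span of 836 nt, all within exon 2 of the 2-exon noncoding host gene Mir17hg. Their order is Mir17 (115043671 to 115043754), Mir18 (115043851 to 115043946), Mir19a (115044000 to 115044081), Mir20a (115044157 to 115044263), Mir19b-1 (115044305 to 115044391) and Mir92-1 (115044427 to 115044506). The other 3 genes lie on the minus strand of chromosome 5 between 138165321 and 138165818, a span of 498 nt, within intron 13 of the 15-exon coding transcript of Mcm7. Their order along the transcript is Mir106b (138165737 to 138165818), Mir93 (138165523 to 138165610) and Mir25 (138165321 to 138165404). Mir93 and Mir25 also fall in an exon of a retained-intron transcript of Mcm7. Reads were counted per gene, so the arms of a hairpin are not separated, and the host transcripts were not analysed here.

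Replicate 2 held 3073086 sense reads assigned to microRNA genes and replicate 1 held 4458853. The libraries stand apart in tissue markers. Mir206, a marker of skeletal muscle, was counted at 101 reads in replicate 2 against 652657 in replicate 1. Mir208a, a marker of heart, was counted at 29718 reads against 59. Replicate 2 thus lacks nearly all of the defining marker of its labelled tissue, and every result below rests on this pair of libraries. Whether the tissue of replicate 2 is that of its label was not tested. A mean and SD over the libraries may therefore not describe replicates of 1 tissue. In bulk tissue, fewer cells of a type and less RNA per cell also cannot be told apart.

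Together the 9 genes held 1.31% of the microRNA reads of replicate 2 (exact 95% interval 1.30 to 1.33%) and 0.674% of those of replicate 1 (0.666 to 0.681%). The chromosome 14 cluster held 0.581% (0.573 to 0.590%) in replicate 2 and 0.459% (0.453 to 0.465%) in replicate 1. Of this, Mir92-1 held 0.233% in replicate 2 and 0.0758% in replicate 1. Its count is uncertain, as set out below, and with it the direction of the share of this cluster. The Mcm7 cluster held 0.732% (0.722 to 0.741%) in replicate 2 and 0.215% (0.210 to 0.219%) in replicate 1. The Mcm7 cluster was therefore the larger of the pair in replicate 2 and the smaller in replicate 1. Averaged over the libraries, the clusters held 0.520 ± 0.0866% (Mir17-92) and 0.473 ± 0.366% (Mir106b-25) of reads (SD, n = 2), so the spread between libraries was far wider for the Mcm7 cluster. Intervals cover counting error only and not variation between pups or libraries. They take reads as independent, so they are too narrow where PCR copies of a molecule are read more than once.

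Mir93, a miR-17 seed gene of the Mcm7 cluster, was the most-read member in replicate 2, with 15269 reads or 4969 CPM (counts scaled to the microRNA reads of the library), against 5978 reads or 1341 CPM in replicate 1. Mir17, the founding member of the chromosome 14 cluster, led in replicate 1 and had 7277 reads (2368 CPM) in replicate 2 and 11482 reads (2575 CPM) in replicate 1. The CPM of Mir17 thus lay close in the libraries, while that of Mir93 did not. Among all 2202 genes Mir93 ranked at 30 in replicate 2 and 76 in replicate 1, and Mir17 at 42 and 57.

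Mir92-1, the last hairpin of its cluster, had 7172 reads (2334 CPM) in replicate 2 and 3381 (758 CPM) in replicate 1. Mir106b, the first hairpin of the Mcm7 cluster, had 5850 reads (1904 CPM) in replicate 2 and 2362 (530 CPM) in replicate 1. Mir20a, which shares its seed with Mir17, had 2822 reads (918 CPM) in replicate 2 and 3890 (872 CPM) in replicate 1. These 3 genes were of middle rank, with Mir92-1 and Mir106b high in replicate 2 and Mir20a about level in CPM.

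Mir25, the Mcm7-cluster gene with the miR-25 seed, had 1371 reads (446 CPM) in replicate 2 and 1236 (277 CPM) in replicate 1. Mir18, the sole carrier of the miR-18 seed among the 9, had 584 reads (190 CPM) in replicate 2 and 1691 (379 CPM) in replicate 1. By CPM, Mir17 and Mir18 were the members with a lower value in replicate 2 among the 7 with at least 100 reads in each library, and the gap was narrow for Mir17. Averaged over the libraries, the levels ran from 3155 ± 2565 CPM for Mir93, through 2472 ± 146 for Mir17 and 1546 ± 1114 for Mir92-1, to 362 ± 119 for Mir25 and 285 ± 134 for Mir18 (SD, n = 2).

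The genes of the miR-19 seed, the main oncogenic component of Mir17-92 in mouse B cell lymphoma, were almost without counted reads. Mir19a was counted 4 times in replicate 2 and 12 times in replicate 1. Mir19b-1 was counted 4 times in replicate 2 and 3 times in replicate 1. In replicate 2 each stood at 1.30 CPM. Mir19b-1 shares a 22 nt stretch with Mir19b-2 of the X-linked cluster, and reads lying wholly within such a stretch map to more than 1 place and would be set aside. Mir19a shares no exact stretch of 18, 22 or 25 nt with another annotated microRNA gene. Near matches and the rest of the genome were not searched, so loss of its reads to multimapping was not tested. Reads of miR-19b-3p set aside in this way were not measured here, and the low counts do not show absence.

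**Figure D1:**
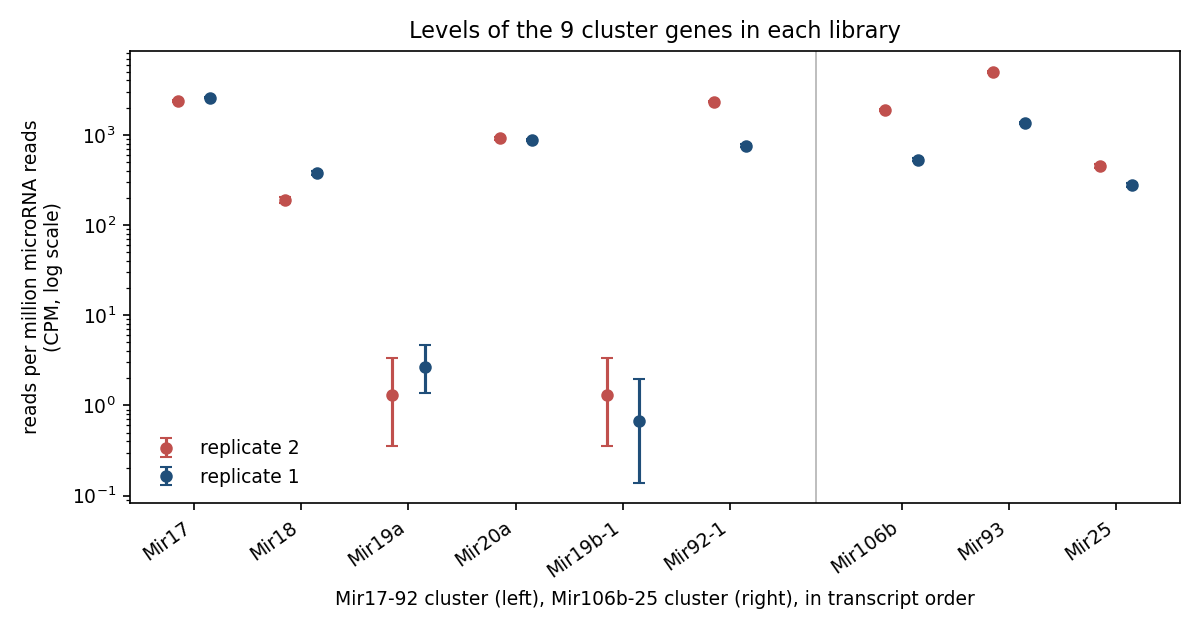
Level of each cluster gene in replicate 2 (red, left of each pair) and replicate 1 (blue), in CPM on a log axis; bars are exact 95% intervals of counting error. Mir93, Mir106b and Mir92-1 stand higher in replicate 2 by CPM (4969, 1904 and 2334 against 1341, 530 and 758), Mir18 stands lower, and Mir19a and Mir19b-1 lie between 0.673 and 2.69 CPM.

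The order of the members differed between the libraries. In replicate 2 it ran Mir93, Mir17, Mir92-1, Mir106b, Mir20a, Mir25, Mir18, and in replicate 1 it ran Mir17, Mir93, Mir20a, Mir92-1, Mir106b, Mir18, Mir25. Within replicate 2 the intervals of Mir17 and Mir92-1 overlapped, and no other neighbours among these 7 had overlapping intervals in either library. Of the 21 pairs among the 7 members with at least 100 reads in each library, 17 had the same order in both libraries. The 4 that did not were Mir17 with Mir93, Mir18 with Mir25, Mir20a with Mir92-1 and Mir20a with Mir106b.

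To compare the libraries, log2 ratios of replicate 2 over replicate 1 were taken on TMM effective library sizes, which discount the few very abundant genes that take up reads. A gene was called where it was at least 2-fold apart (a log2 ratio of at least 1 in size) and its 95% counting interval left out 0. With a single group there is no replicate check of such a difference, and a call compares these libraries and not conditions. Of all 410 genes with at least 10 reads, 17.6% were called higher in replicate 2 and 35.6% lower. Of the 9 cluster genes 8 had enough reads, of which 2 were higher and 1 was lower. These small counts, read against the shares over all genes, are no result about the clusters. The 8 had a median log2 ratio of −0.25 and all 410 genes one of −0.33, with median sizes regardless of sign of 1.11 and 1.25.

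Both called higher were in the Mcm7 cluster. Mir93 had a log2 ratio of 1.26 (1.22 to 1.31) and Mir106b one of 1.22 (1.15 to 1.29), a 2.40-fold and a 2.33-fold difference. Mir25, from the same intron, stood at 0.06 (−0.05 to 0.17), an interval that holds 0. Summed, the Mcm7 cluster was higher in replicate 2, with 22490 reads against 9576 in replicate 1 and a log2 ratio of 1.14 (1.11 to 1.18).

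On TMM sizes the tested genes of the chromosome 14 cluster stood below 0 except Mir92-1, the last hairpin, whose count is uncertain as set out below. Mir18 was lower in replicate 2, with a log2 ratio of −1.62 (−1.76 to −1.49), a call that ended with total reads, where it stood at −0.995. Mir17 stood at −0.75 (−0.79 to −0.71) and Mir20a at −0.55 (−0.62 to −0.48), both short of 2-fold. Mir92-1 stood at 0.995 (0.936 to 1.05), just short of it on the other side. Mir92-1 was called higher with DESeq2 size factors (1.27), with total reads (1.62) and under 4 more of the alternatives tried, so its call depends on the scaling. Mir19a, with few reads, had an interval of −3.76 to 0.05. Summed, the cluster had 17863 reads in replicate 2 and 20459 in replicate 1, a log2 ratio of −0.29 (−0.31 to −0.26). It was not called and turned to 0.34 with total reads. Without Mir92-1 and Mir19b-1, which share 22 nt stretches with other genes, the sum stood at −0.77 on TMM sizes, also not called.

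**Figure D2:**
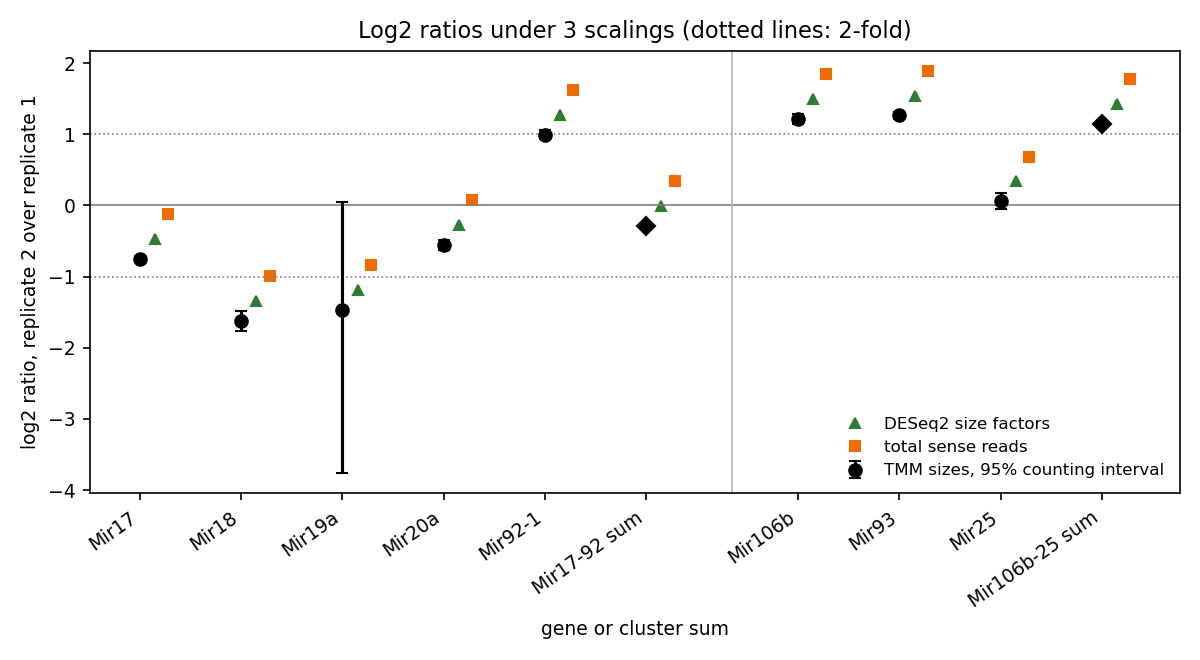
Log2 ratio of replicate 2 over replicate 1 for the 8 tested genes and the sum of each cluster (diamonds), on TMM sizes with 95% counting intervals (black), with DESeq2 size factors (green triangles) and with total reads (orange squares). Mir93 and Mir106b lie above the 2-fold line under all 3 scalings, Mir92-1 lies at the line under TMM, and the Mir17-92 sum crosses 0.

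**Figure D3:**
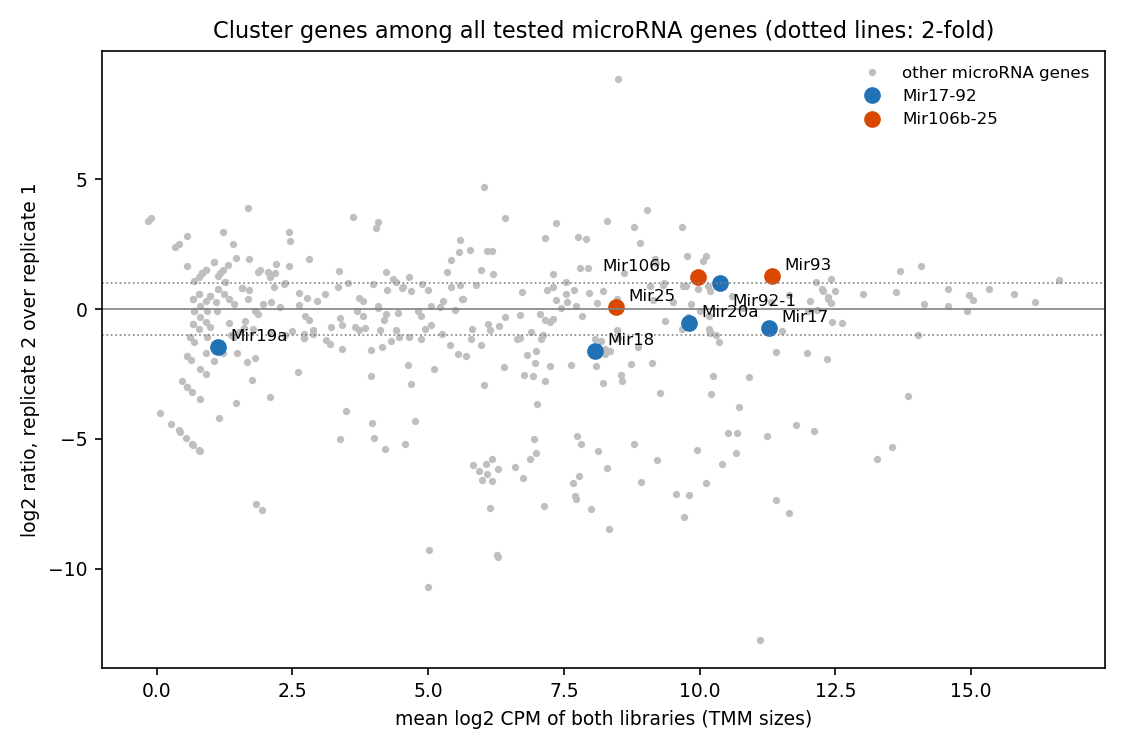
Log2 ratio of replicate 2 over replicate 1 against mean log2 CPM on TMM sizes for the 410 tested microRNA genes, with the Mir17-92 genes in blue, the Mir106b-25 genes in orange and all others in grey. The cluster genes lie between −1.62 (Mir18) and 1.26 (Mir93), inside the wider cloud of the other genes.

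Ratios between cluster genes within a library need no scaling between libraries. The Mcm7 cluster had 1.26 reads for each read of Mir17-92 in replicate 2 and 0.468 in replicate 1, a 2.69-fold difference (log2 1.43, exact conditional 95% interval 1.38 to 1.47). Mir93 alone had 2.10 reads for each read of Mir17 in replicate 2 and 0.521 in replicate 1, a 4.03-fold difference. The balance between the clusters therefore differed between the libraries by far more than counting error.

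Reads of the member genes with the miR-17 seed came mostly from the Mcm7 cluster in replicate 2 and mostly from Mir17-92 in replicate 1. Those of the member genes with the miR-25 seed came mostly from Mir17-92 in both. Counts per gene hold both arms of a hairpin, so they are not counts of reads with the seed. The Mcm7 genes Mir106b and Mir93 supplied 67.7% of the reads of the 4 members with the miR-17 seed in replicate 2 (67.1 to 68.2%) and 35.2% in replicate 1 (34.6 to 35.8%). Mir17 and Mir20a supplied the remainder. For the seed shared by Mir25 and Mir92-1, the Mcm7 gene Mir25 supplied 16.0% in replicate 2 (15.3 to 16.8%) and 26.8% in replicate 1 (25.5 to 28.1%), the opposite direction. Mir92-1 shares a 22 nt stretch with Mir92-2, so its count is uncertain, and with it these shares and their direction. The intervals cover counting error only. Reads over all members of the miR-17 seed came to 31218 in replicate 2 and 23712 in replicate 1, a log2 ratio of 0.31 (0.28 to 0.33) that was not called. For the miR-25 seed the sums were 8543 and 4617, a log2 ratio of 0.80 (0.75 to 0.85), also not called. Counting Mir106a and Mir20b as well left the Mcm7 share of the miR-17 seed at 66.8% in replicate 2 and 34.9% in replicate 1.

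**Figure D4:**
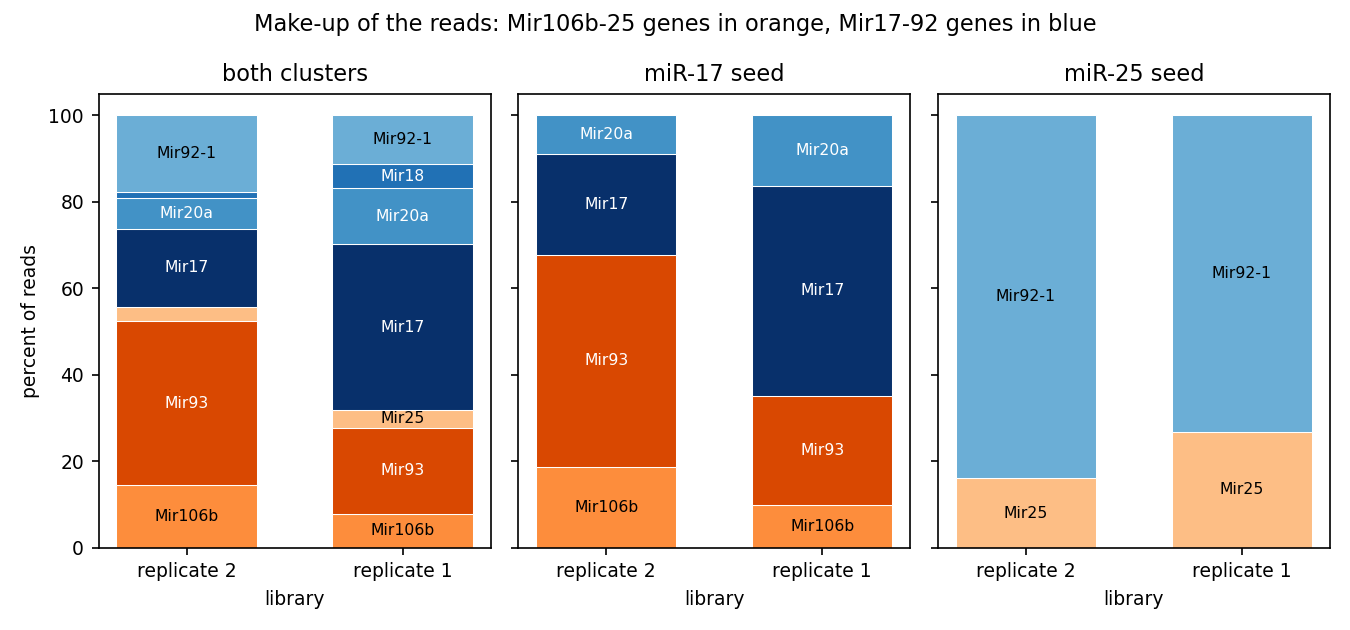
Make-up of the reads in replicate 2 (left bar) and replicate 1 (right bar) for both clusters together, for the 4 genes with the miR-17 seed and for the pair with the miR-25 seed, in percent, with Mcm7-cluster genes in orange tones and Mir17-92 genes in blue tones. The orange share of the miR-17 seed is 67.7% in replicate 2 and 35.2% in replicate 1. That of the miR-25 seed is 16.0% and 26.8%, which is uncertain because the count of Mir92-1 is. Unlabelled thin bands are Mir25 and Mir18, and Mir19a and Mir19b-1 are too few to draw.

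Genes of the same cluster differed in their proportions between the libraries. Mir17 made up 40.7% of the reads of its cluster in replicate 2 (40.0 to 41.5%) and 56.1% in replicate 1 (55.4 to 56.8%), whereas Mir92-1 made up 40.1% (39.4 to 40.9%) and 16.5% (16.0 to 17.0%). Mir20a made up 15.8% and 19.0%, and Mir18 made up 3.27% and 8.27%. Reads of Mir92-1 are in the total behind each share, and its count is uncertain, as set out below. The shares of the other genes, and the direction of those of Mir17 and Mir20a, are therefore uncertain too. For each Mir17 read there were 0.986 Mir92-1 reads in replicate 2 and 0.294 in replicate 1, a 3.35-fold difference. Mir20a stayed much closer to Mir17, with 0.388 reads for each in replicate 2 and 0.339 in replicate 1. This ratio leaves Mir92-1 out and was higher in replicate 2, unlike the share of Mir20a in the cluster.

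In the Mcm7 intron Mir93 made up 67.9% of the cluster in replicate 2 (67.3 to 68.5%) and 62.4% in replicate 1 (61.4 to 63.4%), and Mir106b 26.0% (25.4 to 26.6%) and 24.7% (23.8 to 25.5%). Mir106b had 0.383 reads for each Mir93 read in replicate 2 and 0.395 in replicate 1, a log2 difference of −0.04 (−0.13 to 0.04) that counting error covers. Mir25 had 0.0898 reads for each Mir93 read in replicate 2 and 0.207 in replicate 1, a log2 difference of −1.20 (−1.32 to −1.08). In each cluster, then, the genes of the miR-17 seed stayed closest together. The gene of the miR-25 seed stood apart from them, Mir92-1 above its partners and Mir25 below. The place of Mir92-1 rests on an uncertain count, and the Mcm7 cluster has only 3 genes. Mir18 also stood apart from Mir17, on the lower side.

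Such differences between close neighbours were also seen elsewhere. Among pairs of microRNA genes within 1000 nt on the same strand, each with at least 100 reads in each library, the cluster genes formed 9 pairs and other genes 33. The log2 difference of the pair, regardless of sign, had a median of 1.16 over the 9 pairs (0.04 to 2.62) and of 0.66 over the 33 (0.00169 to 3.43). It was at least 1 in 6 of the 9 and in 8 of the 33. Among the 6 were Mir92-1 with Mir20a (1.55), with Mir17 (1.74) and with Mir18 (2.62). These rest on the uncertain count of Mir92-1, and so does the median over the 9. The rest of the 6 were Mir18 with Mir20a (1.07), Mir25 with Mir106b (1.16) and Mir25 with Mir93 (1.20). Pairs from the same cluster share genes, and this comparison was chosen after the values were seen and has no test. The smallest of the 9 differences was that of Mir106b and Mir93, and the largest was that of Mir18 and Mir92-1.

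The count of Mir92-1 is uncertain. Its hairpin shares a 22 nt stretch with Mir92-2, and the mature miR-92a-3p of the pair is identical, so reads lying wholly in that stretch would be set aside and only longer or shifted reads would be assigned. Multimapping reads made up 45.1% of all reads in replicate 2 and 35.7% in replicate 1, and how many are of miR-92a-3p was not measured here. Mir17, Mir18, Mir19a, Mir20a, Mir106b, Mir93 and Mir25 share no exact stretch of 18, 22 or 25 nt with another annotated microRNA gene. Without Mir92-1 and Mir19b-1 the Mcm7 cluster had 2.10 reads for each Mir17-92 read in replicate 2 and 0.561 in replicate 1, a log2 difference of 1.91 (1.86 to 1.96), so the change in balance between the clusters was larger without them. None of the 9 genes had an antisense read, and their unstranded and sense counts were equal.

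The GC content of the printed mature sequences ran from 34.8% (miR-19a-3p) to 57.1% (miR-92a-3p). Among the 7 genes with at least 100 reads in each library it was 57.1% for Mir92-1, 52.2% for Mir93, 50.0% for Mir25, 47.8% for Mir17, 43.5% for Mir18, 42.9% for Mir106b and 39.1% for Mir20a. The genes with the highest ratios, Mir93, Mir106b and Mir92-1, thus had GC contents of 52.2%, 42.9% and 57.1%. Lengths ran from 21 to 23 nt. Small RNA libraries capture microRNAs with unequal efficiency according to their sequence, so levels of different genes within a library are read counts and not molecule counts.

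The X-linked paralog cluster Mir106a-363 was sparse, with 888 reads over its 6 genes in replicate 2 and 288 in replicate 1. It was higher in replicate 2 with a log2 ratio of 1.53 (1.34 to 1.73). Of 5 genes tested 2 were higher and 0 lower, against 17.6% and 35.6% of all 410 genes, and so small a count is no result about the cluster. Mir92-2, the second source of miR-92a-3p, had 388 reads in replicate 2 and 78 in replicate 1, a log2 ratio of 2.21 (1.87 to 2.59). Mir106a, the counterpart of Mir17, had 256 and 88, a log2 ratio of 1.44 (1.10 to 1.82). Mir20b had 156 and 75 reads (0.96) and Mir363 had 83 and 40 (0.95), both short of 2-fold. Mir18b had 5 reads in each library, and Mir19b-2 had 0 in replicate 2 and 2 in replicate 1. Mir19b-2 and Mir92-2 hold the 22 nt stretches they share with Mir19b-1 and Mir92-1, so their counts are uncertain too, as is the sum over the cluster, of which Mir92-2 was the most-read gene in replicate 2.

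Mir17 and Mir106a, whose mature sequences differ by U10A alone, therefore stood on opposite sides of 0, at −0.75 and 1.44, although Mir17 had many more reads. Mir32, a further carrier of the miR-25 seed in an intron of Tmem245, had 212 reads in replicate 2 and 154 in replicate 1, a log2 ratio of 0.37 (0.07 to 0.68). Mir92b had 51 and 12 reads and was higher at 1.91 (1.07 to 3.04). Mir367 had 0 reads in both libraries, which allows up to 0.976 CPM in replicate 2 and up to 0.673 CPM in replicate 1. The clusters of Mir302 and Mir290, which mark pluripotent stem cells and have a related seed, held 41 reads over 12 annotated genes in replicate 2 and 10 in replicate 1, with 6 and 7 of the genes at 0.

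Markers of other cell types differed between the same libraries, in which 17.6% of all 410 genes were called higher in replicate 2 and 35.6% lower. The erythroid genes Mir451a and Mir144 summed to 3009 reads in replicate 2 and 983 in replicate 1, with both of them higher and a summed log2 ratio of 1.52. The white blood cell genes Mir142, Mir150, Mir155, Mir223 and Mir146 were all detected and, with Mir142b at 0, summed to 13195 reads in replicate 2 and 3534 in replicate 1, a log2 ratio of 1.81. Of these 5, 3 were higher and 1, Mir223, was lower. The fibroblast genes had 3 of 3 tested members lower, with sums of 8625 reads in replicate 2 and 26334 in replicate 1, and Mir199a-1 was at 0 in replicate 2. The endothelial Mir126a and its antisense neighbour Mir126b summed to 203315 and 113332 reads, a log2 ratio of 0.75 that was not called. The skeletal muscle list summed to 292 and 653225 reads, of which Mir206 alone held 652657 in replicate 1. Of its 5 tested genes 3 were lower and 0 higher, with a median log2 ratio of −1.13 and a highest of 0.75. The heart and slow muscle list summed to 42691 and 3080 reads, with 3 of 3 tested genes higher. The part of these markers in the values of Mir93, Mir106b, Mir18 and the balance between the clusters was not tested.

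By distance between log2 CPM values over the 2 libraries, among 179 other genes with at least 100 reads in each, the gene nearest to Mir17 was Mir98 (8378 reads in replicate 2 and 14122 in replicate 1, distance 0.36). Mir98 is a let-7 family gene on the X chromosome. Mir21a and Mirlet7f-2 followed at distances of 0.68 and 0.73. The nearest to Mir93 were Mir28a (14858 and 9562 reads, distance 0.68), Mirlet7f-2 (0.70) and Mir361 (1.14), none of them called. Mir93 thus had no neighbour as close as Mir98 was to Mir17.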

How the data were processed

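For each library the deposited file holds raw counts of reads per microRNA gene, unstranded, sense and antisense. Its description names assembly mm10 and annotation GENCODE M21. The aligner is not given in the sources used here, nor is any trimming. The layout is that of STAR gene counts, with 4 summary lines that stayed out of library sizes. In the sense column unmapped, multimapping and unannotated reads made up 8.60%, 45.1% and 3.83% of replicate 2 and 9.97%, 35.7% and 2.05% of replicate 1. All 2202 identifiers matched GENCODE M21; 0 columns belonged to another sample.

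Log2 ratios used sense counts, a prior count of 1 and TMM sizes from the 410 genes with at least 10 reads in total (edgeR 4.0.16, R 4.3.3). Intervals are exact Clopper-Pearson 95% intervals of counting error. The limit of a count of 0 is 3 counts. No p-value was computed. Alternatives were DESeq2 1.42.0 size factors, total reads with and without Mir206 and Mir378a, other minimum and prior counts, the unstranded column, and each library alone. The genes named are the 9 members, the X-linked cluster, other genes of shared or related seeds, the markers and the 3 genes nearest to Mir17 and to Mir93. Members, lists and rules were chosen with earlier results of these data known. Other tools were Python 3.11.15, pandas 2.3.3, scipy 1.17.1 and, for arrays, numpy 2.4.6.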

Additional observations from a re-analysis of the deposited data

How the results depend on the processing

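Mir93, Mir106b and the sum of the Mcm7 cluster stayed called higher under every scaling, minimum, prior count and strand column tried. Other settings shifted the log2 ratios of the members by a common amount: 0.28 with DESeq2 size factors, 0.63 with total reads, 0.60 with total reads without Mir206 and Mir378a, 0.20 with no minimum, 0.37 with at least 100 reads, 0.17 in the unstranded column and −0.13 on TMM sizes without the Dlk1-Dio3 domain, an alternative chosen after seeing the data. The summed ratio of Mir17-92 turned to 0.34 with total reads, 0.31 without Mir206 and Mir378a in the totals and 0.089 with at least 100 reads. These sums include Mir92-1. Without Mir92-1 and Mir19b-1 the sum stood at −0.77 on TMM sizes. Mir20a turned to 0.074 and 0.044 under the first pair of these, and Mir25 to −0.074 without the Dlk1-Dio3 domain. The count of members lower in replicate 2 was 0 with total reads, where Mir18 stood at −0.995, and 2 without the Dlk1-Dio3 domain, where Mir19a joined it at −1.60. These moves follow from the common shift. In the unstranded column the members had the same counts as in the sense column, but other genes did not.

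In the unstranded column, where fewer reads are assigned to microRNA genes, the mean share was 1.30% for the 9 genes, 0.665% for Mir17-92 and 0.631% for Mir106b-25. With each library alone the share of the 9 genes ran from 0.674% to 1.31%, that of Mir17-92 from 0.459% to 0.581% and that of Mir106b-25 from 0.215% to 0.732%. A single library gives no ratio. Low counts limit Mir19a and Mir19b-1. Reads set aside as multimapping may bear on Mir19b-1, Mir92-1, Mir19b-2 and Mir92-2, and were not measured.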
